A study of Mus musculus with 15 samples.

Results

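Neuroblasts with few transcripts of 6 cell cycle genes, from the striatum of mice given an antipsychotic drug or placebo, are described here across 15 mice. They are cells that the deposited annotation calls neuroblast and in which the unique molecular identifiers (UMIs, 1 per captured transcript) of 6 cell cycle genes, Top2a, Pclaf, Rrm2, Ube2c, Birc5 and Cenpf, summed to under 3. Members were chosen by measured values of those 6 genes and by a class made from the same counts, so these values are no finding. The rule kept 577 of the 709 neuroblasts, out of 5558 cells in all, and left 132 cycling neuroblasts. Below, non-cycling and outside the cell cycle mean only that a cell met this rule. Male C57BL/6J mice, 8 weeks old at purchase and habituated for about 1 week, were treated for 28 to 29 days with haloperidol from implanted pellets (5 mice), with olanzapine in the food (5 mice), or with placebo (5 mice). The striatum of each mouse was dissociated, dead cells were removed, and 3' single-cell RNA-seq was done on the 10x Chromium system. The labels give about 500 cells loaded per mouse. More cells than that were kept here from olanzapine mouse 3 (1184), haloperidol mouse 3 (626), olanzapine mouse 5 (580) and placebo mouse 5 (512). All mice shared the strain and carried no transgene according to the labels, and how the placebo was given is not in them.

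Neuroblasts are immature neurons. In the adult mouse brain they are born in the subventricular zone, beside the striatum, and migrate along the rostral migratory stream to the olfactory bulb, where most become GABA-releasing interneurons. They carry doublecortin (Dcx), which binds microtubules in migrating neurons, and homeobox factors of the Dlx family, which specify GABAergic neurons of the forebrain.

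The members came from every mouse but not in equal numbers. Haloperidol mice 1 to 5 gave 19, 10, 31, 36 and 28 cells, olanzapine mice 8, 16, 183, 29 and 27, and placebo mice 60, 20, 25, 27 and 58. Olanzapine mouse 3 thus held 183 of the 263 olanzapine cells, and olanzapine mouse 1, with 8, was left out of the sums per mouse below, which needed 10 cells. The other 14 mice had between 20023 and 491641 UMIs in their members. A median member had 2271 UMIs from 1222 genes, against 6921.5 UMIs in a cycling neuroblast and 3324 in a neuron, and 1.89% of a median member's UMIs were mitochondrial. A cell barcode sequence that occurred in more than 1 mouse was carried by 449 of all cells, among them 43 members. Of these sequences, 19 were shared by 2 members. Such cells were kept, and whether transcripts of 1 cell were counted in 2 libraries was not tested. The libraries are treated below as separate mice, with this limit.

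A set of 5 libraries stood apart from the rest by Lamp1 in microglia, and this bears on some of the markers below. In haloperidol mice 1 and 4, olanzapine mice 2 and 5 and placebo mouse 4, Lamp1, a lysosomal membrane protein, was at 83.7 to 448 CPM in microglia (UMIs of a gene per 1000000 UMIs of that class in that mouse), against 726 to 1145 CPM in the other 10 libraries. Lamp1 was lower in the astrocytes (194 to 383 against 562 to 980 CPM) and neurons (65.6 to 115 against 172 to 413 CPM) of the same libraries. In the members Lamp1 overlapped, at 0.0 to 102.2 CPM in the 5 libraries and 49.94 to 252.3 CPM in the other 10. The value of haloperidol mouse 1 rests on 7 microglia. Olanzapine mouse 4, at 726 CPM of Lamp1 in microglia, was placed with the other 10. Its Ptov1 in microglia, 18.05 CPM, lay within the 0.0 to 27.97 CPM of the 5 libraries. The labels name no batch, and the cause was not tested.

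The promoters of Dlx2 and Sp9, genes of transcription factors that marked these cells, are shown. Dlx2 was chosen for the highest ratio to any class outside the neuroblasts among genes at 100 CPM or more. Sp9 was chosen because it differed so widely between libraries. Both windows lie on chromosome 2 (GRCm38.p6, RefSeq sequence), directly before the gene, at chr2:71546755-71547004 on the minus strand for Dlx2 and chr2:73271676-73271924 on the plus strand for Sp9. Capitals mark matches on either strand to CACGTG (an E-box), CCAAT and GGGCGG (a GC box).
Dlx2: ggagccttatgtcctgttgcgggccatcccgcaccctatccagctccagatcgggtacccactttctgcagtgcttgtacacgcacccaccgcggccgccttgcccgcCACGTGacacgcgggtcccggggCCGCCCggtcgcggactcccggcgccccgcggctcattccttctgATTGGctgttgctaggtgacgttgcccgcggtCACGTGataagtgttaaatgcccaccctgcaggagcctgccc
Sp9: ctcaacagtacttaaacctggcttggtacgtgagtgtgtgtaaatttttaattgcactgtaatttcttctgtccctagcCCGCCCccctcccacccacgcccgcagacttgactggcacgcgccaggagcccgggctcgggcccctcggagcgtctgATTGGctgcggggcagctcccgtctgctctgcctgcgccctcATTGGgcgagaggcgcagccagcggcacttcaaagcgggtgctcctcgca
The Dlx2 window held 4 matches, of all 3 motifs, and the Sp9 window 3 matches, of CCAAT and GGGCGG. The Sp9 window was trimmed to 249 bases to stay outside annotated exons. Of all 32851 promoter windows of 250 bases, 33.9% held CCAAT, 32.7% GGGCGG and 6.02% CACGTG. The homeodomain core TAATTA was in 4.84% and CAGCTG in 13.0%. For 7 of the 12 genes that lead the list below, 11 windows were given, and CCAAT was in 6 of the 11, TAATTA in 5, GGGCGG in 4, CAGCTG in 2 and CACGTG in 1. Windows of the same gene are not independent. By gene, CCAAT was in 5 of the 7, GGGCGG in 4, TAATTA in 3, CAGCTG in 2 and CACGTG in 1. A match describes letters only.

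The members carried the markers of the label neuroblast. All 6 of Dcx, Igfbpl1, Sox4, Cd24a, Sp9 and Dlx1 were higher in the members than in every other deposited class, and their summed level had a median of 6942 CPM over mice against 134 CPM in neurons. Levels here are means over mice with at least 10 cells of the class (14 mice for the members, 6 for cycling neuroblasts, 15 for neurons). Because the classes came from clustering the same cells, these levels are a description without a test.

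Among the forebrain transcription factors, Dlx2 stood at 866 ± 159 CPM in the members (SD, n = 14 mice), against 609 ± 133 in cycling neuroblasts and 5.51 ± 6.45 in neurons. That was 148 times the level of the next class outside the neuroblasts, the astrocytes. Its neighbour on chromosome 2, Dlx1 (chr2:71528113-71533981), stood at 788 ± 189 CPM in the members, against 568 ± 52.5 in cycling neuroblasts and 8.14 ± 5.81 in neurons. The 12 genes with the highest such ratios, among those at 100 CPM or more, included Dlx2, Dlx1, Igfbpl1, Sp8, Cd24a, Prokr2, Dlx6os1, Sox11, Cd1d1, Dcx and Ccnd2. Among these are the lineage transcription factors Dlx1, Dlx2, Sp8 and Sox11, the RNA Dlx6os1, which lies antisense to Dlx6, and Prokr2, a receptor for prokineticin 2, which guides neuroblasts to the olfactory bulb. The sources used here do not say whether strand was used in counting, so Dlx6os1 cannot be told from Dlx6. Of 27 transcription factors of forebrain interneurons that were listed, 17 were higher in the members than in every class outside the neuroblasts. Cycling neuroblasts, which share the deposited class of the members, were left out of such counts and ratios.

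Some of these factors separated the members from cycling neuroblasts as well. Meis2, a homeobox partner of Pbx proteins, was at 2082 ± 310 CPM in the members, 547 ± 161 in cycling neuroblasts and 651 ± 106 in neurons. Pbx3 was at 464 ± 92.9 CPM in the members, 57.9 ± 27.5 in cycling neuroblasts and 36.2 ± 17.01 in neurons. Sox11, a factor of immature neurons, showed no such step, with 1796 ± 338 CPM in the members and 1781 ± 362 in cycling neuroblasts. Etv1 was not particular to the members: 298 ± 99.3 CPM, against 703 ± 153 CPM in the class deposited as olig precursor, whose markers were those of myelinating cells and not of precursors.

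Genes of the cytoskeleton and of migration were abundant, and 24 of 42 listed were higher in the members than in every class outside the neuroblasts. Their summed level had a median of 60670 CPM against 11430 CPM in neurons. Dcx (chrX:143855842-143933311) was at 623 ± 113 CPM in the members, 191 ± 30.1 in cycling neuroblasts and 28.3 ± 18.1 in neurons. Tubb3, the neuronal beta-tubulin, was at 2953 ± 662, 1059 ± 302 and 200.3 ± 86.0 CPM in the same order of classes. Stmn2, which destabilises microtubules in growing axons, was at 2033 ± 248, 589 ± 175 and 435 ± 163 CPM. Prokr2 was at 115 ± 67.0 CPM in the members and 4.41 ± 10.8 in cycling neuroblasts, and Robo2, a receptor for the guidance cue Slit, at 268 ± 153 and 15.7 ± 13.8 CPM.

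**Figure D1:**
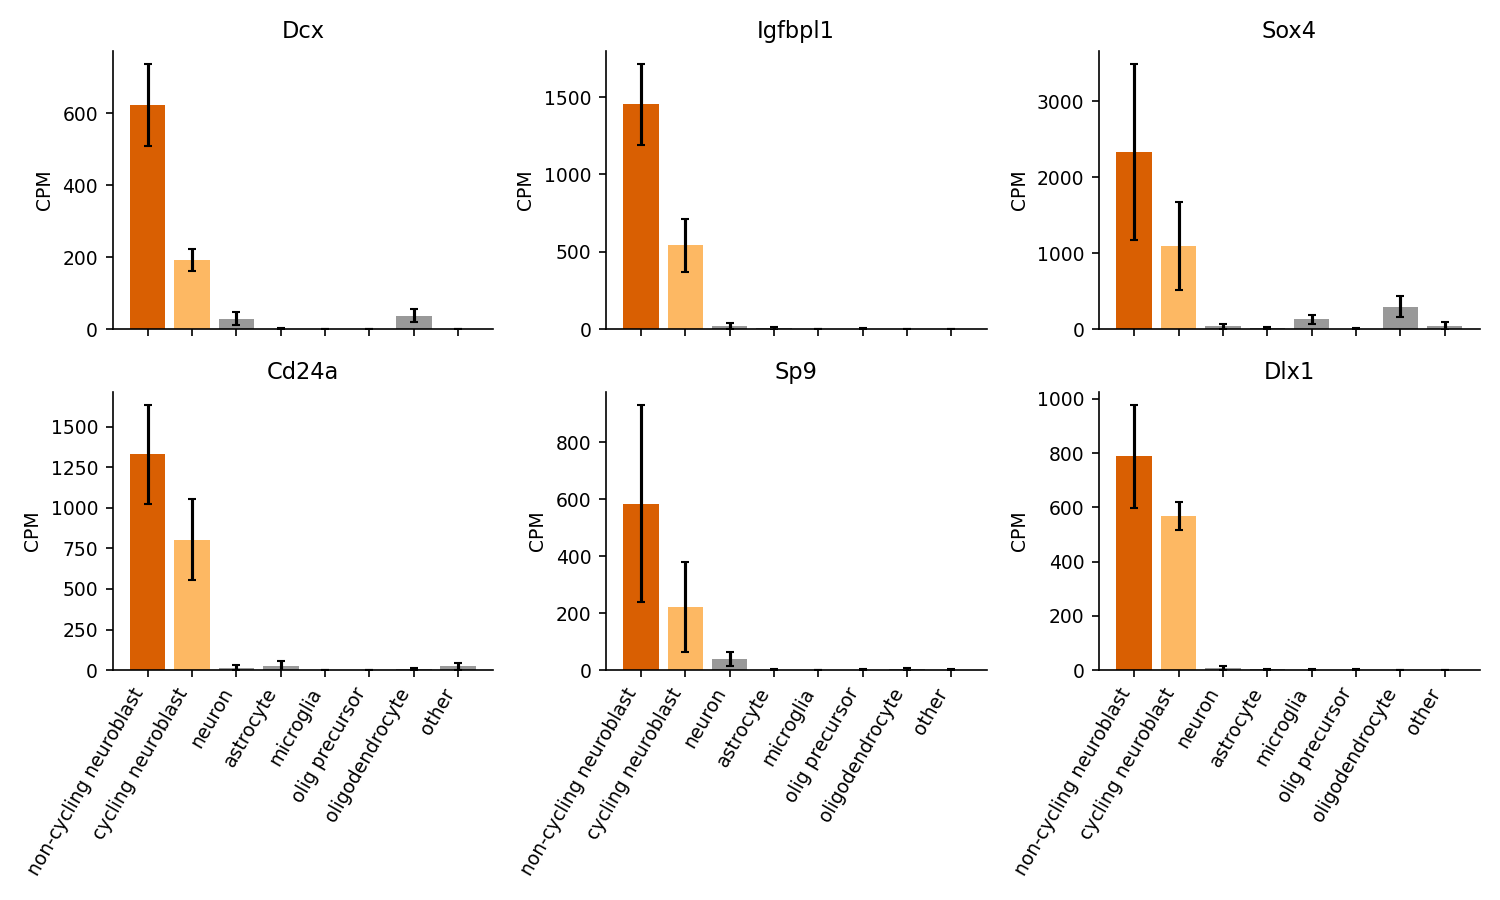
Levels of the 6 neuroblast markers in CPM by class, as bars for the mean over mice and error bars for the SD, with non-cycling neuroblasts at the left, then cycling neuroblasts (6 mice), neurons and the other deposited classes. In each panel the non-cycling neuroblasts have the highest bar, from 585 CPM for Sp9 to 2331 CPM for Sox4.

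The rule used cell cycle genes, so low values of other cell cycle genes were fixed by it in part. Of the 577 members, 543 had 0 UMIs of the 6 genes, 26 had 1 and 8 had 2. Just inside the limit, the 8 cells with 2 UMIs held 481 CPM of Dcx, 1713 of Meis2 and 2224 of Hmgb2, a chromatin protein of dividing cells. Just outside it, the 11 cells with 3 UMIs held 203 CPM of Dcx, 689.8 of Meis2 and 629 of Hmgb2. The limit is a count and the cycling cells were deeper, so cells of at least 1500 UMIs were also thinned to 1500. Of these, 446 of 461 members and 3 of 130 cycling neuroblasts then had 0 UMIs of the 6 genes. Thinning can only lower a count, so the figure for the members was largely fixed by the rule. Most cycling neuroblasts still had a UMI of these genes at this depth, but they had been picked for at least 3 such UMIs. Their figure therefore rests on the values that the rule used and gives no support for it. The 118 shallower neuroblasts were left out of this thinning. Ccnd2, cyclin D2, stayed abundant outside the cycle, at 2677 ± 750 CPM in the members against 4454 ± 982 in cycling neuroblasts and 80.2 ± 33.0 in neurons. Cdkn1b, an inhibitor of cyclin-dependent kinases, was at 132 ± 41.9 CPM in the members and 119 ± 45.1 in cycling neuroblasts.

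Genes of GABA function differed in how near they were to the level of neurons. Gad2, which makes GABA, was at 392 ± 117 CPM in the members, 129 ± 70.5 in cycling neuroblasts and 382 ± 93.7 in neurons. Slc32a1, which loads GABA into synaptic vesicles, was at 63.9 ± 34.1 CPM in the members against 698 ± 205 in neurons. Of 14 listed GABA and olfactory bulb interneuron genes in the table, 3 were higher in the members than in neurons and 4 had no UMI in them (Reln, Th, Nos1 and Pvalb). Calb2, calretinin, a marker of a subset of olfactory bulb interneurons, was found in 18 members, and 10 cells from 6 mice held 348 of its 356 UMIs.

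Mature neuronal genes were mostly low. Only Nrxn3, a presynaptic adhesion protein, of 32 listed synaptic genes was higher in the members than in neurons (1033 ± 223 against 552 ± 52.4 CPM), while Syt1, the calcium sensor of vesicle release, was at 117 ± 55.9 against 1200 ± 229 CPM. None of 10 mature neuron markers was higher: Meg3, a long noncoding RNA, was at 4219 ± 844 against 16560 ± 3784 CPM, and Snhg11 at 19.9 ± 17.8 against 5702 ± 1745 CPM. Ribosomal protein transcripts, whose counts are uncertain because these genes have near-identical copies, went the other way, with 77 of 77 genes higher in the members than in neurons and a summed median of 167500 against 53430 CPM. Markers of astrocytes, microglia, myelin, oligodendrocyte precursors, vessels and ependyma were low in the members, none of them at 100 CPM, and the summed level of the 12 astrocyte markers, the highest of these lists, was 52.4 to 512 CPM over mice.

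Receptors at which these drugs act were close to undetected. Of 17 listed receptor genes in the table, 9 had 0 UMIs in the members, which allows a share of up to 0.520% of cells with a UMI, counting error alone. Drd1, a dopamine receptor gene, was among them, with 0 of 577 members against 34.5% of neurons. Drd2, the receptor that haloperidol blocks, had a UMI in 0.693% of members, against 22.5% of neurons and 0.670% of microglia, so the members were near the share of a class that should lack it (median depth 2271 UMIs in members and 3430 in microglia). Htr2c, a serotonin receptor gene that olanzapine blocks, had 2 UMIs in 1 member, against 27.9% of neurons with a UMI. No receptor gene had enough counts for a test between drugs.

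Clustering the members gave 4 clusters, described by their genes and not named. Cluster 1 (229 cells) led with Asap1, Plekha1 and Foxp2. Cluster 2 (181 cells) led with C130073E24Rik, Cpne4 and Sh3gl2, and held 6853 CPM of Meg3, 848 of Pbx3 and 265 of Ccnd2. Cluster 3 (129 cells) led with Vim, Mdk and Lockd, and held 1480 CPM of Meg3, 120.4 of Pbx3 and 5158 of Ccnd2. Meg3 and Ccnd2 thus ran in opposite directions between clusters 2 and 3, and the neuronal genes Tubb3 (2178 against 3877 CPM) and Stmn2 (1605 against 2413 CPM) were lower in cluster 2, unlike Meg3. The UMI median was 3385 in cluster 3 against 1996 in cluster 2, and 17 of the cells of cluster 3 against 3 of cluster 2 had a UMI of a rule gene. Cluster 4 (38 cells) had a UMI median of 1262, 29.4% ribosomal protein UMIs against 13.6 to 16.4% in the others, and 16 of its cells came from placebo mouse 5. Clusters 1 to 3 held cells of all 15 mice. Of the 10 cells with 2 or more Calb2 UMIs, 8 lay in cluster 2.

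**Figure D2:**
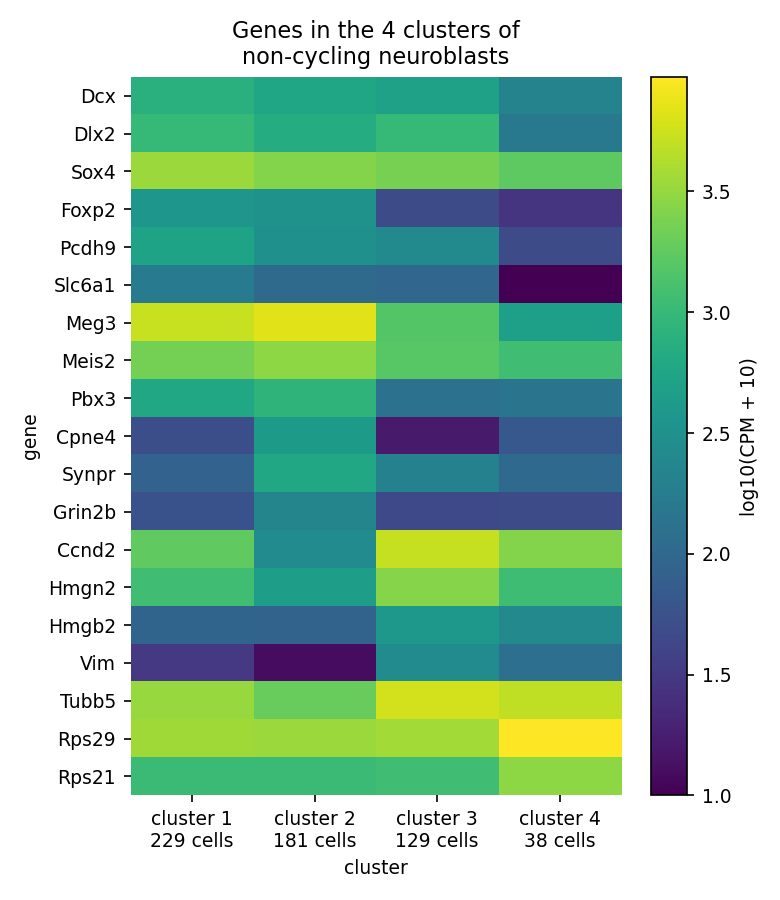
Levels of selected genes in the 4 clusters of non-cycling neuroblasts, as log10(CPM + 10), with genes down the side and clusters across. Cluster 2 has more Meg3, Pbx3, Cpne4 and Synpr and cluster 3 more Ccnd2, Hmgb2 and Vim, and cluster 4 has the highest Rps29 and Rps21.

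Among mice, 2 of the 6 markers split along the libraries that stood apart, while the drug groups overlapped. Sox4, a transcription factor of immature neurons (chr13:28948919-28953713), was at 1227, 3046, 3044, 1109 and 3041 CPM in haloperidol mice 1 to 5, at 1433, 3832, 1524 and 1180 in olanzapine mice 2 to 5, and at 2400, 4645, 3204, 926 and 2028 in placebo mice 1 to 5. The 5 low-Lamp1 libraries had 926 to 1433 CPM, all below the 1524 to 4645 CPM of the other 9. Sp9 was at 105 to 315 CPM in the 5 libraries and 503 to 999 CPM in the other 9, again without overlap. Of 1320 genes tested in the members, 10 were wholly below and 2 wholly above in these 5 libraries (0.909%), and Ptov1, Ptms, Gnas and Jund were among the lower ones. Since the 5 libraries were picked with their values in view, this is a description.

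Dcx, Igfbpl1, Cd24a and Dlx1 overlapped between the libraries. Dcx was at 572, 899, 700, 561 and 769.5 CPM in haloperidol mice, 739, 561, 592 and 488 in olanzapine mice 2 to 5, and 616, 528, 539, 577 and 582 in placebo mice. The 3 groups overlapped, and the placebo mice lay closest together.

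**Figure D3:**
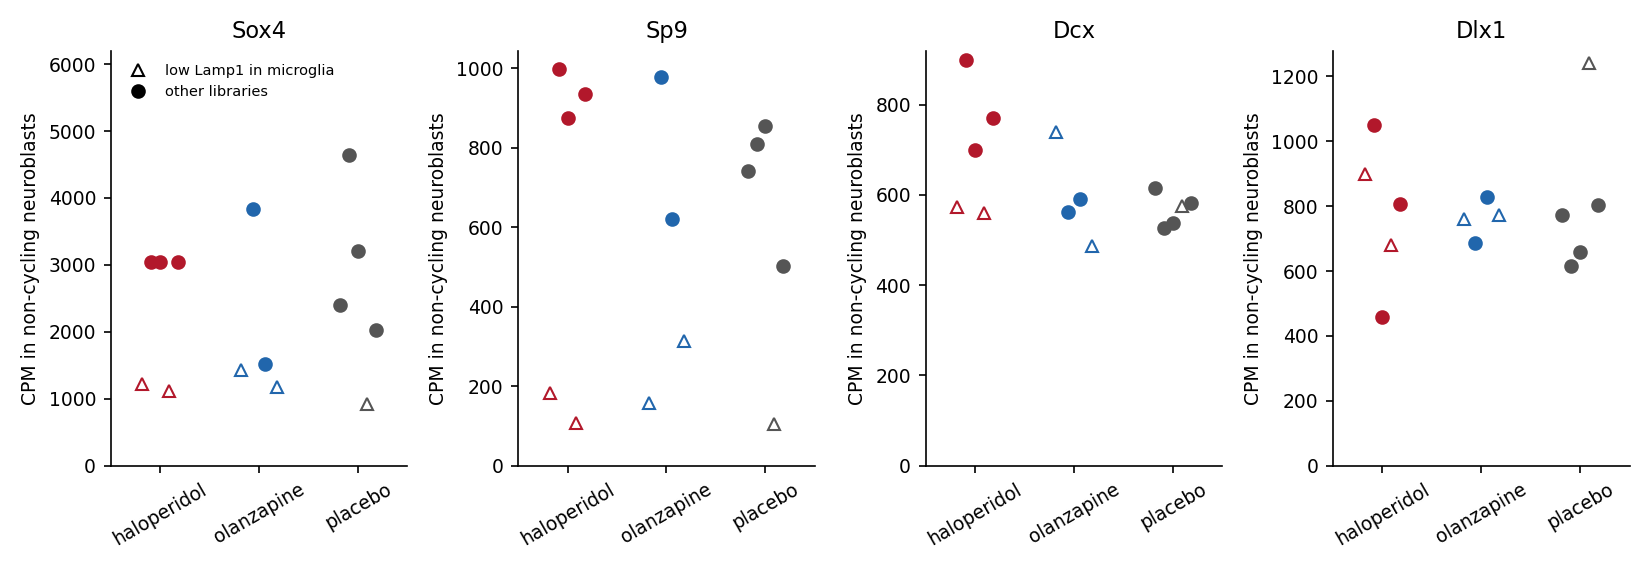
Levels of Sox4, Sp9, Dcx and Dlx1 in non-cycling neuroblasts of each mouse, in CPM, by drug. Open triangles are the 5 libraries with low Lamp1 in microglia and filled circles the others; the triangles lie lowest for Sox4 (926 to 1433 CPM) and Sp9 (105 to 315 CPM) and are mixed with the circles for Dcx and Dlx1.

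The first question between drugs is how many cells were of this kind. Non-cycling neuroblasts made up 15.3, 10.8, 4.95, 8.96 and 12.4% of all cells in haloperidol mice 1 to 5, 10.1, 12.5, 15.5, 7.75 and 4.66% in olanzapine mice, and 13.4, 12.0, 9.19, 7.87 and 11.3% in placebo mice. The groups overlapped throughout. Haloperidol mice averaged 10.5 ± 3.88%, olanzapine mice 10.1 ± 4.17% and placebo mice 10.8 ± 2.21% (SD, n = 5 each). Two-sided exact permutation tests gave p = 0.889 for haloperidol against placebo, 0.770 for olanzapine against placebo and 0.881 for haloperidol against olanzapine.

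Within the neuroblast class, the share outside the cycle was 76.0, 83.3, 73.8, 76.6 and 82.4% in haloperidol mice, 84.2, 83.2, 78.4 and 73.0% in olanzapine mice 2 to 5, and 80.0, 83.3, 96.2, 81.8 and 82.9% in placebo mice. The haloperidol mean of 78.4 ± 4.19% (SD, n = 5) was 6.41 percentage points under the placebo mean of 84.8 ± 6.46% (SD, n = 5), with an exact two-sided p = 0.0952, or 0.571 after Benjamini-Hochberg adjustment over the 6 share tests. The difference was −3.58 points without placebo mouse 3, the highest of the mice with at least 10 neuroblasts. Olanzapine averaged 79.7 ± 5.15% (SD, n = 4), and its exact p against placebo was 0.286 (adjusted 0.857). Haloperidol against olanzapine gave an exact p = 0.675 (adjusted 0.889). Olanzapine mouse 1, with 8 neuroblasts, all of them outside the cycle (100.0%), was not in these 2 tests. With it, an alternative chosen after seeing the data, olanzapine differed from placebo by −1.08 points (exact p = 0.833, n = 5 each) and haloperidol from olanzapine by −5.33 points (exact p = 0.333). None of these 6 share differences exceeded the spread between mice.

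**Figure D4:**
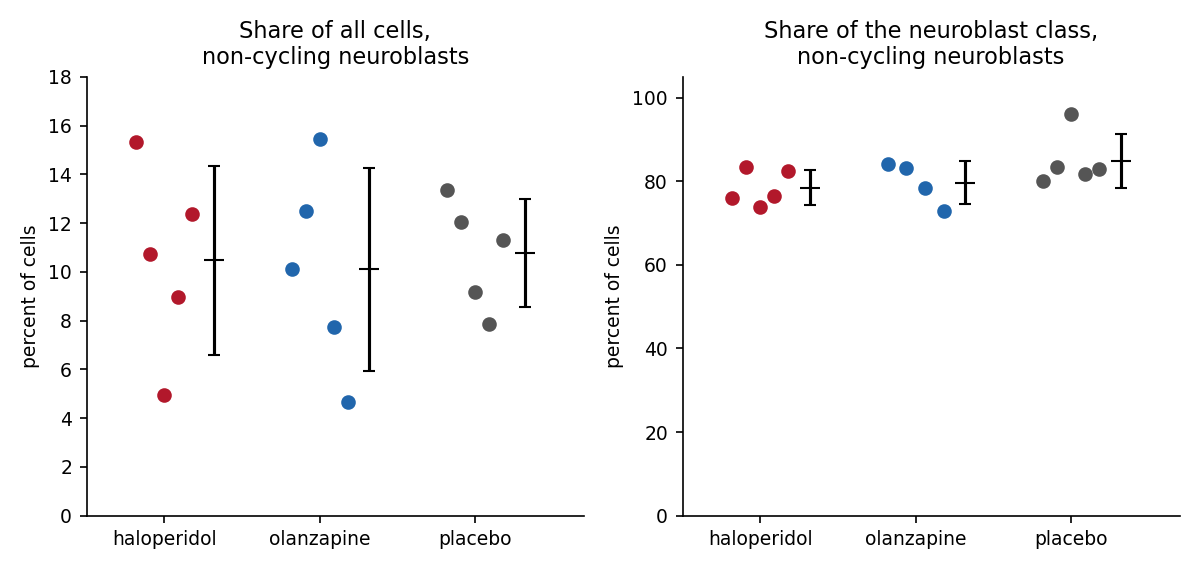
Non-cycling neuroblasts in each mouse as a percent of all cells (left) and of the neuroblast class (right), by drug; points are mice and the cross with a bar is the mean with its SD. The groups overlap in both panels, and the point at 96.2% is placebo mouse 3.

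The second question is whether the drugs changed gene expression in these cells. UMIs were summed per mouse and tested with edgeR's quasi-likelihood test over 1320 genes, on 5 haloperidol, 4 olanzapine and 5 placebo mice. At a Benjamini-Hochberg adjusted p under 0.05, 0 genes passed for haloperidol against placebo (0.0% of the genes tested), 0 for olanzapine against placebo (0.0%) and 0 for haloperidol against olanzapine (0.0%). At an unadjusted p under 0.05 there were 55, 51 and 56 genes in that order, and DESeq2 called 0 genes in each, with 33, 32 and 38 genes at an unadjusted p under 0.05. These p-values measure the spread between mice, each library being 1 mouse. In none of the 3 comparisons did any listed gene that was tested pass, so what follows gives levels and the largest differences as values. Many listed genes were too low to test. Of 38 cell cycle genes outside the rule 4 were tested, and 0 of the 6 rule genes and 0 of the 17 receptor genes. No marker of glia, vessels or ependyma was tested.

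The markers showed no difference past the spread. For haloperidol against placebo the log2 fold change was 0.25 ± 0.18 for Dcx (SE, 5 mice each), −0.25 ± 0.18 for Igfbpl1, 0.18 ± 0.18 for Cd24a, −0.12 ± 0.20 for Dlx1, −0.21 ± 0.50 for Sox4 and −0.06 ± 0.67 for Sp9, with edgeR adjusted p = 0.999 for each. For olanzapine against placebo they were 0.02 ± 0.18 for Dcx, −0.24 ± 0.18 for Igfbpl1, 0.02 ± 0.19 for Cd24a, −0.12 ± 0.20 for Dlx1, −0.34 ± 0.51 for Sox4 and −0.05 ± 0.65 for Sp9. The errors of Sox4 and Sp9 are the widest, and those are the markers that differed between libraries.

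For haloperidol against placebo, the smallest p belonged to Cct8, a subunit of the TRiC chaperonin that folds tubulin and actin. Cct8 was at 102, 0, 175, 174 and 183 CPM in haloperidol mice 1 to 5, against 302, 246, 269.5, 349 and 238 CPM in placebo mice 1 to 5. All haloperidol mice lay below all placebo mice, and 12 of the 1320 genes tested had no overlap (0.909%). Its log2 fold change was −0.91 ± 0.27, with an edgeR adjusted p = 0.999. Wbp2, a WW domain binding protein, also separated the groups, with a mean of 99.3 ± 33.7 CPM with haloperidol and 189 ± 16.8 CPM with placebo. Macf1, which links microtubules to actin, averaged 338 ± 161 CPM with haloperidol and 173 ± 56.0 with placebo, and Gnaq, a G protein alpha subunit, 179.9 ± 51.9 and 85.8 ± 25.7 CPM. Tshz1, a zinc finger factor of olfactory bulb interneurons, averaged 339 ± 133 CPM with haloperidol and 230.1 ± 56.1 CPM with placebo. None of these passed.

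For olanzapine against placebo, Ckb, brain creatine kinase (chr12:111669361-111672338), had the smallest p. It was at 739, 610, 1258 and 693 CPM in olanzapine mice 2 to 5, against 364, 264, 464, 332 and 503 CPM in placebo mice. All olanzapine mice lay above all placebo mice. Its log2 fold change was 1.02 ± 0.23 (edgeR adjusted p = 0.189), and the adjusted p was 0.0259 without olanzapine mouse 3, the library with the most cells. Amn1 was at 98.2 ± 9.88 CPM with olanzapine and 203 ± 7.86 CPM with placebo (SD, n = 4 and 5), a log2 fold change of −1.05 ± 0.29 that did not pass. Fubp1, which binds single-stranded nucleic acid, averaged 439.6 ± 60.7 CPM with olanzapine and 269 ± 45.2 CPM with placebo. Dynll1, a dynein light chain, averaged 1085 ± 133 and 657 ± 243 CPM, and Hsp90ab1, a cytosolic chaperone, 1729 ± 208 and 1231 ± 191 CPM, in the same order. In these 5 genes no olanzapine mouse overlapped the placebo mice, which held for 33 of the 1320 genes tested (2.5%), while 0.0% were called.

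For haloperidol against olanzapine, Hspa8, the constitutive Hsc70 chaperone, was at 1819, 1748, 1805, 1910 and 1649 CPM in haloperidol mice, against 3180, 2746, 2546 and 2030 CPM in olanzapine mice 2 to 5. All haloperidol mice lay below all olanzapine mice, and 17 of the 1320 genes tested had no overlap (1.29%). The log2 fold change was −0.53 ± 0.17 (edgeR adjusted p = 0.770). Hnrnpm, a splicing factor that was at 499 CPM in haloperidol mouse 2 alone of its group, averaged 273 ± 127 CPM with haloperidol and 515 ± 200 CPM with olanzapine. Jun, an immediate early gene, averaged 305 ± 81.7 and 613 ± 178 CPM, and Hspa5, the endoplasmic reticulum chaperone BiP, 123 ± 25.7 and 223 ± 71.2 CPM, in the same order. Gadd45g, a growth arrest gene, averaged 131 ± 73.6 CPM with haloperidol and 405 ± 273 CPM with olanzapine. None of these passed.

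**Figure D5:**
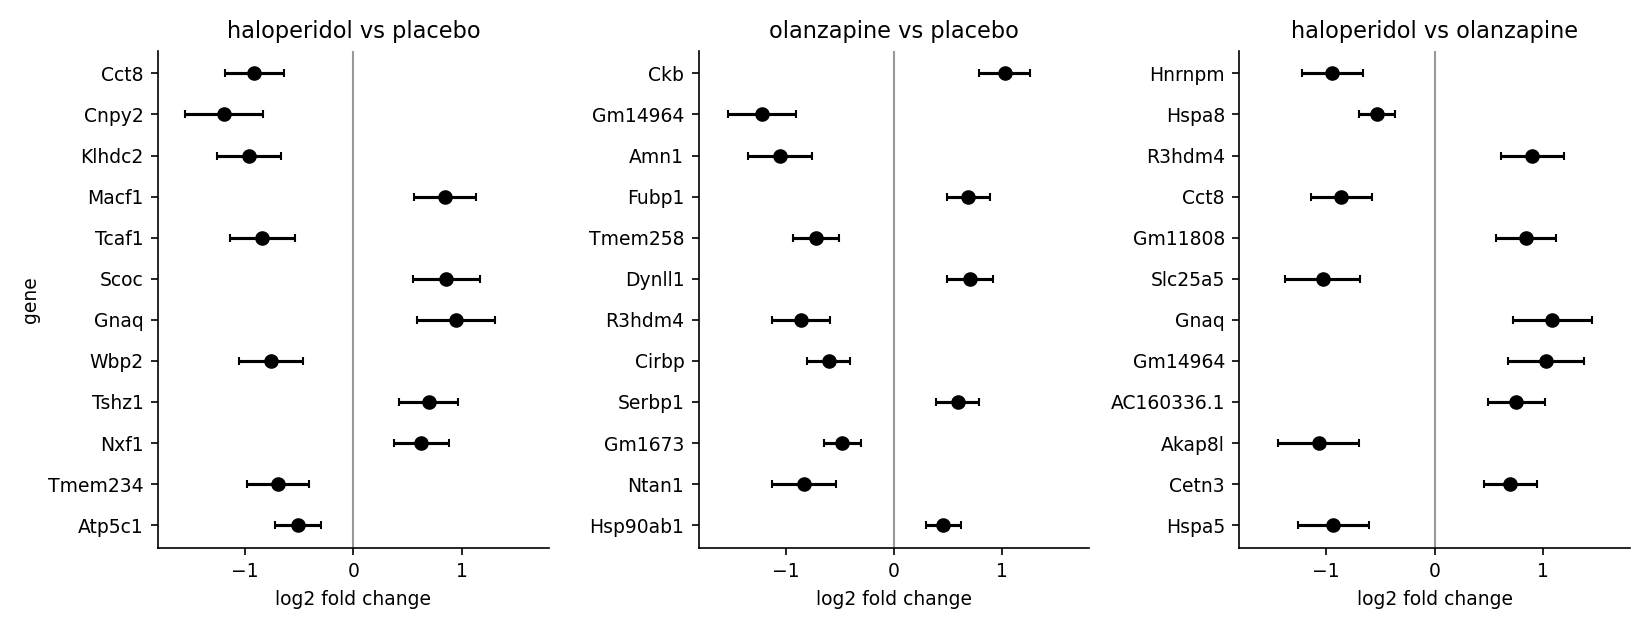
Log2 fold changes with their SE from edgeR for the 12 genes of smallest p in each of the 3 comparisons in non-cycling neuroblasts, by comparison; the genes run down each panel in order of p. No gene passed an adjusted p under 0.05, and Ckb, at 1.02 ± 0.23, has the smallest adjusted p, 0.189.

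Gene lists are given by how many tested members lay on each side of 0, against all 1320 genes, of which 47.2% were higher with haloperidol than placebo, 50.6% with olanzapine than placebo and 48.1% with haloperidol than olanzapine. Of 11 tested mitochondrially encoded genes, subunits of the respiratory chain, 11 had a positive log2 fold change for haloperidol against placebo, with a median of 0.29 against −0.014 over all genes, and none passed. The median was 0.073 without the low-Lamp1 libraries. mt-Nd2 was at 1411, 399.5, 714, 895 and 824 CPM in haloperidol mice and 478, 721, 464, 786 and 705 CPM in placebo mice, so the groups overlapped. The mitochondrial share of a median member was 2.31 ± 0.46% over haloperidol mice, 2.12 ± 0.50% over olanzapine mice and 1.81 ± 0.25% over placebo mice, and its part in these values was not tested. For olanzapine against placebo, 4 of the 11 were higher and the median was −0.015. For haloperidol against olanzapine, in which the same haloperidol mice enter, all 11 were higher and the median was 0.30, or 0.062 without the low-Lamp1 libraries.

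Of 18 tested forebrain transcription factors, 11 were higher and 7 lower with haloperidol than placebo (median 0.06), and 5 were higher and 13 lower with olanzapine than placebo (median −0.10). The 29 tested cytoskeleton and migration genes split evenly, with 14 higher and 15 lower in each of these 2 comparisons. Of 77 ribosomal protein genes, 23 were higher with haloperidol than placebo (median −0.06) and 19 with olanzapine than placebo (median −0.11). Of 4 tested progenitor genes, 0 were higher with haloperidol than placebo and 3 with olanzapine than placebo. Of 20 listed genes of the unfolded protein response, 2 were abundant enough to test, and none of either list passed in any comparison.

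The last question is whether a drug's change differed between these cells and the neurons of the same mice, a test of the difference itself over 3651 genes and the same 14 mice. For haloperidol against placebo 0 genes passed (0.0%, with 141 at an unadjusted p under 0.05). For olanzapine against placebo 3 genes passed (0.0822%, with 236 at an unadjusted p under 0.05), and these were Penk, Trappc5 and Sst. For Trappc5, a subunit of the TRAPP complex that tethers vesicles, the difference of the log2 fold changes was 2.45 ± 0.54 (edgeR adjusted p = 0.0220). Trappc5 was at 44.8 to 110.2 CPM in the members of olanzapine mice and 15.0 to 35.2 CPM in those of placebo mice. In the neurons of the same mice it was at 57.7 to 115.4 CPM with olanzapine and 112.5 to 196.2 CPM with placebo. The neuron means were 91.1 ± 24.3 and 160.4 ± 30.9 CPM in that order. The member values rest on 2, 26, 7 and 7 UMIs in olanzapine mice 2 to 5, and on 5, 2, 1, 2 and 2 UMIs in placebo mice 1 to 5.

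Penk (proenkephalin) and Sst (somatostatin) are peptide precursors of striatal neurons. The difference of the log2 fold changes was 3.09 ± 0.66 for Penk and 3.93 ± 0.89 for Sst (edgeR adjusted p = 0.0220 and 0.0258). In the members, Penk had 0, 13, 4 and 7 UMIs in olanzapine mice 2 to 5, with all of the 4 and all of the 7 in a single cell each, and 3, 0, 0, 0 and 1 UMIs in placebo mice. Sst had 17 of its member UMIs in olanzapine mouse 3. In the olanzapine mice 5.32% of members and 8.67% of microglia had a Penk UMI, and 7.61% of members and 9.11% of microglia an Sst UMI. In placebo mice 2.11% of members and 2.97% of microglia had a Penk UMI, and 0.5263% and 2.602% an Sst UMI. Over all cells of the olanzapine mice, Penk was at 34.9 CPM in members and 31.0 in microglia, and Sst at 29.1 and 25.8 CPM. The shares of members lay below those of microglia, a class that should lack both genes and was deeper (median 3430 against 2271 UMIs). Per UMI the levels were slightly above those of microglia. Whether the members expressed these genes cannot be told from these counts, and the part of free RNA was not tested. In neurons, Penk was at 3841 ± 1732 CPM with olanzapine and 4866 ± 1791 with placebo. Sst was at 2625 ± 2197 and 5273 ± 5121 CPM there, with 9.27 CPM in olanzapine mouse 2. The count of 3 calls was 1 without olanzapine mouse 3, when the call was Tac1, 1 without placebo mouse 4, when it was Trappc5, and 0 when olanzapine mouse 4, olanzapine mouse 5 or any of placebo mice 1, 2, 3 and 5 was left out, and also with the libraries that stood apart as a term. It was 8 without those libraries.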

How the data were processed

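The deposited table held raw UMI counts of 15932 genes in 5581 cells with a class and a mouse for each cell. Cell Ranger, Seurat and mm10 are named in the submitters' processing notes, while the sources used here give no versions or settings. The members and gene lists were chosen with earlier results of these data known. Cells over 20% mitochondrial UMIs were removed (23, none a neuroblast), leaving 5558. Doublets were kept: Scrublet called 38 of 128 cells of olanzapine mouse 2 at a threshold of 0.035, and only 5 members in all, so their removal is an alternative. Counts of the members were summed per mouse (at least 10 cells) and tested with edgeR 4.0.16 in R 4.3.3 (TMM, filterByExpr, quasi-likelihood, 3 groups in 1 fit, Benjamini-Hochberg over all genes), with DESeq2 1.42.0 as an alternative. The difference from neurons was an interaction term of class and drug with a term for each mouse. Shares were compared with exact permutation tests over all splits of the mice. CPM are UMIs per 1000000 UMIs of a class in a mouse; intervals and floors cover counting error only. Named genes were the 6 markers, the 6 rule genes, the receptors, the 12 genes of highest ratio at 100 CPM or more, the 12 of smallest p in each comparison and the 3 of smallest p in each list. Clusters came from scanpy 1.11.5 (2000 variable genes, 20 components, 15 neighbours, Leiden at 0.6). The low-Lamp1 libraries were those under 600 CPM in microglia, a choice made after seeing the data. Promoters, in the RefSeq windows of 250 bases, were read from GRCm38.p6. Some results of single genes are not reported here. The statistics were tested on simulated counts.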

Additional observations from a re-analysis of the deposited data

Results flagged for a closer look

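Among 51 groups of 4 or 5 mice checked for a mouse far from the rest, 3 were marked, and chance marks about 1 in 20 groups. Placebo mouse 3 had 96.2% of its neuroblasts outside the cell cycle, against 80.0 to 83.3% in the other placebo mice. Sox4 was at 3832 CPM in the members of olanzapine mouse 3, against 1180 to 1524 CPM in the other olanzapine mice, of which 2 are low-Lamp1 libraries. Hnrnpm was at 499 CPM in haloperidol mouse 2, which had 10 members, against 204 to 227 CPM in the other haloperidol mice.

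For 3 genes the change with olanzapine differed between non-cycling neuroblasts and neurons by a test of the difference itself in edgeR. The difference of the log2 fold changes was 3.09 for Penk (adjusted p = 0.0220), 2.45 for Trappc5 (adjusted p = 0.0220) and 3.93 for Sst (adjusted p = 0.0258). Over 20 alternatives Penk passed in 7, Trappc5 in 8 and Sst in 5.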

How the results depend on the processing

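No gene passed for haloperidol against placebo under any alternative run, replicates left out included (0 to 0 genes). For olanzapine against placebo 0 to 1 genes passed when mice were left out in turn, the 1 being Ckb without olanzapine mouse 3. For haloperidol against olanzapine 2 genes, Mfge8 and Gadd45g, passed with no filter on low counts, and 0 to 0 with mice left out. The difference from neurons under haloperidol stayed at 0 genes. Under olanzapine its 3 genes became 0 with doublets removed and 0 with a rule sum of 0. They became 0 with at least 5 cells per mouse and 0 with the library set as a term. With no filter on low counts 2 genes passed, Hba-a1 and Hbb-bs, and none of Penk, Trappc5 and Sst did. The count was 8 without the low-Lamp1 libraries and 0 to 4 with mice left out, and the cause was not tested. The library set as a term, the runs without those libraries and the share with every mouse kept were chosen after seeing the data. Differences in share stayed short of the threshold under the alternatives run; without mice in turn, the share of all cells differed by −1.50 to 1.10 points for haloperidol against placebo, −2.002 to 0.70 for olanzapine against placebo and −0.98 to 1.76 for haloperidol against olanzapine, and the share of the neuroblast class by −7.64 to −3.58, −6.66 to −2.32 and −3.51 to 0.24 points in that order of comparisons. No paired analysis was possible because the mouse numbers occur once each and the replicate numbers only name a mouse. Depth limits this comparison: 1320 genes could be tested, and a mouse's members held as few as 20023 UMIs.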

Other observations

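Several RNA-binding proteins of young neurons were high in the non-cycling neuroblasts. Of 19 listed, 10 were higher than in every class outside the neuroblasts, with cycling neuroblasts left out of the count. Mex3a was at 161 ± 69.8 CPM in the members, 109 ± 46.7 in cycling neuroblasts and 1.48 ± 2.37 in neurons (SD over 14, 6 and 15 mice). Elavl4, an RNA stabiliser of neurons, was at 317 ± 139.9, 347 ± 101 and 29.8 ± 23.9 CPM in the same order of classes, and Celf4, a splicing regulator, at 782 ± 208, 199.8 ± 104 and 505 ± 152 CPM. The members carried less transcript of chaperones of the endoplasmic reticulum than neurons. The 20 listed genes summed to a median of 1379 CPM in the members against 4305 CPM in neurons. None of them was higher in the members than in every class outside the neuroblasts. These levels are descriptions, since the classes came from the same cells.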
